A study of Cicer arietinum with 11 samples.

Results

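The young leaf library was 1 of 11 RNA sequencing libraries of an expression atlas of chickpea (Cicer arietinum), and was taken by its tissue label and set against each of the other 10 libraries. All 11 came from the genotype ICC4958, with 1 library per tissue or stage and no treatment named in the labels. Young leaves were collected from mature plants, which grew in the field per the labels' protocols. The other libraries were a germinating seedling, from seedlings grown in a culture room, the shoot apical meristem (plants 20 days old), flower buds of stages 1 to 4 and flowers of stages 1 to 4. TRI reagent was used to extract RNA, from which mRNA libraries were made for Illumina sequencing. Plant age, and for the seedling also growth site, changed together with the tissue, so for the seedling and the meristem their parts cannot be told apart. Which of these sites the meristem plants came from is not given in the labels. With 1 library of young leaves the spread between leaf samples was not measured: no test was run, and each count is of transcripts past a stated difference between libraries.

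A young leaf is an organ that is still expanding while its photosynthetic apparatus is being built. In green leaves of many plants, messages of the nuclear genes for the small subunit of the carbon-fixing enzyme Rubisco and for the chlorophyll-binding proteins of the light-harvesting antenna are among the most abundant. The shoot apical meristem is a small dome of dividing cells that gives rise to leaves and flowers, and flower buds carry green sepals around the developing stamens and carpel. In tissue RNA of this kind, fewer cells of a type and less RNA per cell cannot be told apart.

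The deposited values are RPKM, which are reads scaled for the length of a transcript and for the depth of its library, for 34760 transcripts. The transcript IDs stand without gene names, and 0 of 34760 matched an entry of a reference table with 29938 genes. What each transcript encodes is therefore not stated here, and the leaf label was not checked against marker genes. Reads and lengths were recovered from the RPKM values for 34703 transcripts, and the other 57 were at 0 in all libraries. The young leaf library held 27158340 reads, within a range of 14536530 to 35643139 over the 11 libraries. At the median transcript length of 736 bases, 1 leaf read stood for 0.050 RPKM and a floor of 3 leaf reads for 0.15 RPKM. Intervals of 95% given for ratios are exact intervals from the reads of the libraries compared. Intervals and floors cover counting error only.

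A small number of transcripts held a larger share of the RPKM in young leaves than in any other library. The 10 highest transcripts of young leaves held 18.3% of the summed RPKM, against 4.80% to 12.1% for the 10 highest of each other library. For the 100 highest the share was 40.2% in young leaves, against 15.4% to 26.3% elsewhere, with flower 1 next. For the 1000 highest it was 66.6% in young leaves, against 43.7% to 51.9% elsewhere. In young leaves 256 transcripts were enough to hold 50% of the summed RPKM, against 884 in the germinating seedling, the next lowest, and 1507 in the shoot apical meristem, the highest. The concentration at the top of the leaf library thus extended well beyond its leading transcript. Without Ca_TC23009, the highest, the 10 and 100 highest of the remaining transcripts still held 16.5% and 38.0% of the leaf RPKM.

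**Figure D1:**
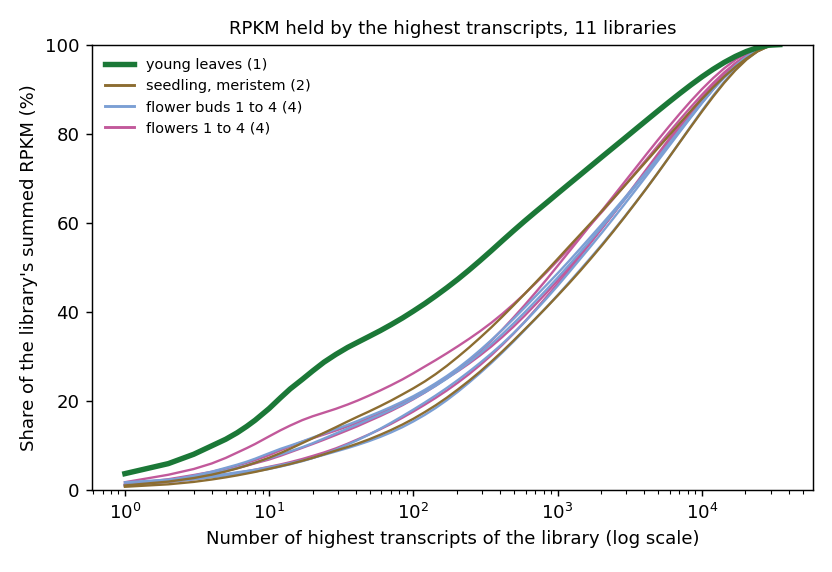
Share of each library's summed RPKM (y axis, %) held by its highest transcripts, counted from the highest down (x axis, number of transcripts, log scale), with 1 line per library. The young leaf line lies above the other 10 up to the 1000 highest transcripts, where it stands at 66.6% against at most 51.9% elsewhere.

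Length bore on this share, because RPKM divides by it. The 20 highest leaf transcripts were 117 to 894 bases long with a median of 250.5, against a median of 736 over all transcripts. The 20 highest of each other library also had medians under 736, from 239.5 (flower bud 3) to 687.5 bases (flower bud 4). Short length at the top was thus not particular to young leaves. Counted in reads, the 10 highest by RPKM took 5.13% of the reads in young leaves, against at most 3.75% (flower 1) elsewhere. The 100 highest by RPKM took 21.4% of the reads in young leaves, against at most 16.7% (the germinating seedling). With transcripts ranked by reads instead, the leading 100 took 23.9% of the reads in young leaves, against at most 18.8% (the germinating seedling). The leaf share was thus smaller in reads than in RPKM, and the highest of the 11 libraries in both. At the other end of the range, fewer transcripts passed a low RPKM limit in young leaves than in the other libraries on the deposited values. An RPKM of at least 1 was reached by 27059 transcripts in young leaves, against 27504 (flower 3) to 30066 (germinating seedling) elsewhere. An RPKM of at least 5 was reached by 14968 in young leaves, against 16893 to 19898 elsewhere. After median-of-ratios scaling, described below, 28297 leaf transcripts reached an RPKM of at least 1, with no scaled counts of the other libraries set beside it. Young leaves were also lowest after all libraries were thinned to the depth of flower bud 2, the shallowest, with 23046 transcripts keeping at least 10 reads in young leaves, against 23842 to 26157 elsewhere. The upper end showed the reverse, with 82 transcripts of at least 1000 RPKM in young leaves, against 29 to 60 elsewhere.

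The leading leaf transcripts were present in every library, and most were highest in young leaves. Of the 20 highest, 18 were higher in young leaves than in all 10 others as deposited, 19 after median-of-ratios scaling and 5 after quantile normalization, which gives each rank the same value in every library. Ca_TC23009 (332 bases) led with 35550.3 RPKM in young leaves, against a range from 4635 (flower 2) through a median of 8515 to 13466 RPKM (flower bud 1) in the other 10. Its leaf value was 2.64-fold (95% interval 2.62 to 2.66) that of the next library, from 320542 leaf reads, and made up 3.73% of the leaf RPKM. This transcript was also the highest of the shoot apical meristem, flower bud 1, flower bud 4 and flower 4, so being first in its library was not particular to the leaf. Ca_TC34387 had 21470.2 RPKM in young leaves, against values from 620.3 (flower 4) through a median of 2922 to 5966 RPKM (flower 1) elsewhere, a leaf excess of 3.60-fold (95% interval 3.55 to 3.64) over the next. Ca_TC20959, only 129 bases long, had 19994 RPKM in young leaves, against values from 979.6 (flower 2) through a median of 1916 to 4244 RPKM (the shoot apical meristem), 4.71-fold (95% interval 4.63 to 4.79) the next. As deposited, the 1 leaf value of each of these 3 lay above all 10 others, as it did for 18 of the 20. After quantile normalization the log2 difference from the nearest library was 0 for Ca_TC23009, 0.84 for Ca_TC34387 and 0.16 for Ca_TC20959.

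Among the 20, the ratio to the next library was largest for Ca_TC24064, Ca_TC09283, Ca_TC20959 and Ca_TC13991. Ca_TC24064 reached 6700.4 RPKM in young leaves, against values from 124 (flower 3) through a median of 430.4 to 1273 RPKM (flower bud 2) elsewhere, 5.26-fold (95% interval 5.10 to 5.43) the next library. Ca_TC09283 reached 6274 RPKM in young leaves, against values from 227 (flower bud 4) through a median of 486 to 1227 RPKM (flower bud 2), or 5.11-fold (95% interval 5.0 to 5.23) the next. Ca_TC13991 stood at 13156 RPKM in young leaves, against values from 1047 (flower 2) through a median of 1677 to 3054 RPKM (flower bud 1), or 4.31-fold (95% interval 4.24 to 4.37) the next, although quantile normalization turned this last difference round. The margin was narrower for others of the group. Ca_TC00010 had 14037 RPKM in young leaves and 10609 in flower 1, a ratio of 1.32, and Ca_TC23269 had 6052 in young leaves and 4712 in flower 1, a ratio of 1.28. Both exceptions of the 20 were highest in flower 1. Ca_TC25222 had 12515 RPKM in young leaves, against 15428 in flower 1, and Ca_TC24113 had 8476 in young leaves, against 14301 in flower 1. Over the 20, the ratio of young leaves to the highest other library ran from 0.593 to 5.26 with a median of 2.26, and 10 of the 20 passed a log2 difference of 1.

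**Figure D2:**
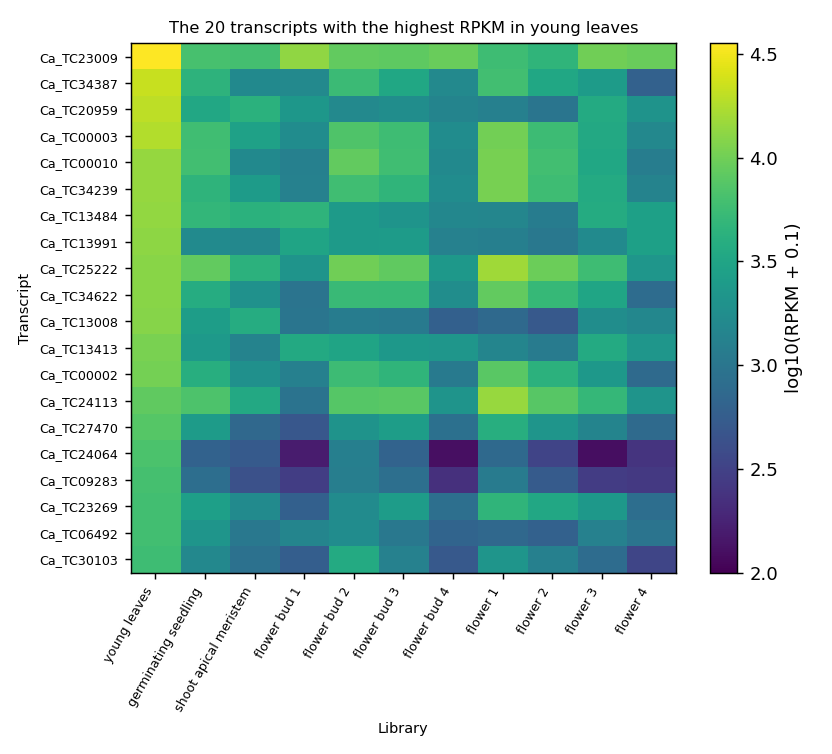
The 20 transcripts with the highest RPKM in young leaves (rows, from the highest down) in the 11 libraries (columns), coloured by log10(RPKM + 0.1). The leaf column is the brightest in 18 rows, and Ca_TC25222 and Ca_TC24113 are brighter in flower 1.

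The 20 were split by how closely they followed Ca_TC00003 outside the leaf. Over the other 10 libraries, 11 of the 19 others had a Pearson correlation of at least 0.9 with Ca_TC00003 in log2(RPKM + 1). This is a description over 10 libraries of 1 plant genotype, and both Ca_TC00003 and the limit were chosen after the values were seen. Within the 12, the 66 pairwise correlations ran from 0.70 to 0.99 with a median of 0.93. Together the 12 held 14.3% of the RPKM in young leaves, against 11.2% in flower 1, 7.71% in flower bud 2 and 1.56% in flower 4, the lowest. Ca_TC00003 itself had 18069.6 RPKM in young leaves, against values from 1558 (flower 4) through a median of 4571 to 10189.5 RPKM (flower 1) elsewhere. For the 12 together, flower 2, flower bud 3 and the germinating seedling came after flower bud 2 with 6.69%, 6.50% and 6.47%, and flower bud 1 and flower bud 4 were low with 1.74% and 2.11%. The remaining 8, led by Ca_TC23009 and Ca_TC20959, held 12.4% in young leaves, against 1.28% (flower 2) to 3.90% (flower bud 1). Their 28 pairwise correlations had a median of 0.40 and ran from -0.50 to 0.93. The gap between young leaves and the next library was thus wider for these 8 than for the 12.

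Beyond the 20, the most abundant leaf transcripts overlapped with those of the other libraries to an extent that differed by stage. The leaf shared 51 of its 100 highest transcripts with the 100 highest of flower bud 1, 46 with flower bud 2, 41 with flower bud 3 and 29 with flower bud 4. With flowers 1 to 4 it shared 37, 31, 41 and 37, and with the germinating seedling and the shoot apical meristem 40 each. Of the 100 highest in young leaves as deposited, 85 were higher there than in any other library. The same count for the 100 highest of each other library was 9 to 42, the largest in flower bud 4.

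A transcript was counted as set apart in young leaves where its log2(RPKM + 1) was at least 1 above the highest, or at least 1 below the lowest, of the other 10 libraries, a 2-fold difference in RPKM + 1. On the deposited values 706 of the 33581 transcripts tested (2.1%) stood above all others in young leaves and 1188 (3.54%) below. Tested transcripts were those with an RPKM of 1 or more in any library. On these values no other library had more transcripts below all its 10 others than above. The germinating seedling had 1005 above and 139 below, the shoot apical meristem 1113 and 120, and flower bud 1 had 324 and 38. The later buds and the flowers had at most 112 above and 90 below, both in flower 3. With no limit on the size of the difference, young leaves had the lowest value for 28.5% of the transcripts tested and the highest for 10.7%.

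The balance between the leaf counts depended on how the libraries were scaled. RPKM divides by the reads of the library, so transcripts that take up many of its reads lower the values of its others. Median-of-ratios scaling sets libraries level at the median transcript instead, and its factor was 0.760 for young leaves, the lowest of the 11, against 0.895 to 1.19 elsewhere. With the lowest factor in young leaves, this scaling raises the ratio of leaf RPKM to that of each other library. On log2(RPKM + 1) a leaf value at or near 0 can still move further down. For Ca_TC12140, at 0 in young leaves, the difference from flower 3 was -2.91 as deposited and -3.05 after scaling. After it, 1455 transcripts (4.33%) were above all others in young leaves and 571 (1.7%) below. The share of the leaf calls that were above thereby moved to 71.8% after scaling, against 37.3% as deposited. Of the 1188 below as deposited, 566 were still called after scaling. Scaling to a common sum of RPKM moved the leaf the other way, with 425 transcripts above and 1757 below.

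**Figure D3:**
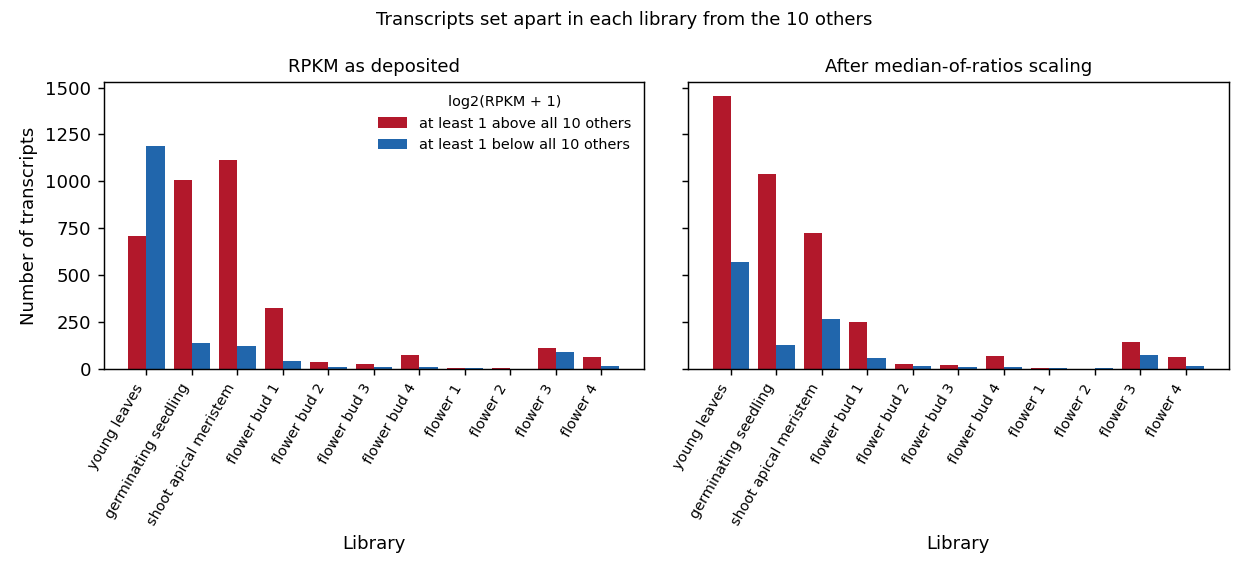
Number of transcripts (y axis) whose log2(RPKM + 1) in a library (x axis) was at least 1 above all 10 others (red) or at least 1 below all 10 others (blue), as deposited on the left and after median-of-ratios scaling on the right. Young leaves show 706 above and 1188 below as deposited, and 1455 above and 571 below after scaling.

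The transcripts above all others in young leaves took up a large share of the leaf RPKM. Of the 706, 496 (70.3%) had an RPKM of at least 1 in each of the other 10 libraries, close to the 67.0% of all transcripts tested, and 33 were under 1 in all 10. Their median was 52.0 RPKM in young leaves, against a median of 18.2 for the highest of the other 10. The 706 held 29.3% of the summed RPKM of young leaves, against 4.25% (flower 2) to 8.59% (flower bud 1) elsewhere. They were chosen for a higher leaf value, so the direction of this difference was fixed by the rule. For 675 the leaf value lay above the other 10 beyond the 95% Poisson intervals of the reads, against 1901 of all 33581 tested. The choice by a wide gap favoured such a result for the 706. The next-highest library was flower bud 1 for 174 of the 706 (24.6%), where flower bud 1 was the highest of the other 10 for 16.4% of all transcripts tested. It was the shoot apical meristem for 159 (22.5%, against 24.9% of all tested) and flower bud 2 for 96 (13.6%, against 8.36%). The germinating seedling was next for 68 (9.63%, against 12.0%). Flower bud 4, flower 1 and flower 2 were next for 14, 17 and 14 (1.98%, 2.41% and 1.98%, against 6.08%, 4.47% and 5.53%).

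Among transcripts with the largest leaf excess, the gap to the next library was widest for a pair of short transcripts. Ca_TC29994 (166 bases) had 393 RPKM in young leaves, against values from 0 (flower 4) through a median of 1.59 to 3.38 RPKM (flower bud 3) in the other 10. The leaf value rested on 1774 reads and that of flower bud 3 on 20, a ratio of 116-fold (95% interval 75.1 to 191) and a log2 difference of 6.49, or 6.96 after median-of-ratios scaling. Ca_TC23283 (146 bases) had 235 RPKM in young leaves, was at 0 in the germinating seedling and flower 4, and reached 2.69 RPKM in flower bud 3, its next highest, for a ratio of 87.2-fold (95% interval 51.7 to 160.1). Both were thus read only at a low level outside the leaf. Their leaf values placed them at rank 299 and rank 505 of the leaf library.

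Several others of the 15 were read in all 11 libraries. Ca_TC18983 had 319.5 RPKM in young leaves, against values from 2.14 (flower 1) through a median of 7.98 to 18.8 RPKM (the shoot apical meristem) elsewhere, 17.0-fold (95% interval 15.6 to 18.6) the next. Ca_TC23855 had 341 RPKM in young leaves, against values from 1.88 (flower 4) through a median of 11.8 to 21.6 RPKM (the germinating seedling), 15.8-fold (95% interval 14.2 to 17.6) the next. Ca_TC13379, the most abundant of the 15, had 1315 RPKM in young leaves, against values from 23.8 (flower bud 1) through a median of 46.7 to 143 RPKM (the germinating seedling), 9.22-fold (95% interval 8.68 to 9.80) the next. The 15 were chosen for the widest gaps, so by that rule no value outside the leaf came near the leaf value. Ca_TC24320 had 186 RPKM in young leaves, 22.2 in the shoot apical meristem and between 1.49 and 8.18 in the other 9. Ca_TC29148, Ca_TC20766 and Ca_TC16810 had 99.8, 62.7 and 79.2 RPKM in young leaves, with the shoot apical meristem next at 5.09, 3.06 and 4.51. The lowest leaf levels of the group were the 10.7 RPKM of Ca_TC21582 and the 16.3 RPKM of Ca_TC14294, which reached at most 0.436 and 0.955 RPKM elsewhere. Over the 15, the ratio to the next library ran from 8.36 to 116 with a median of 17.0. The next library was the shoot apical meristem for 6 of the 15 and the germinating seedling for 3, where these were the highest other library for 24.9% and 12.0% of all transcripts tested. All 15 stayed at least 1 above all others after median-of-ratios scaling, quantile normalization and scaling to a common sum. Their smallest log2 difference as deposited was 3.01, so staying past 1 was largely set by the choice.

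**Figure D4:**
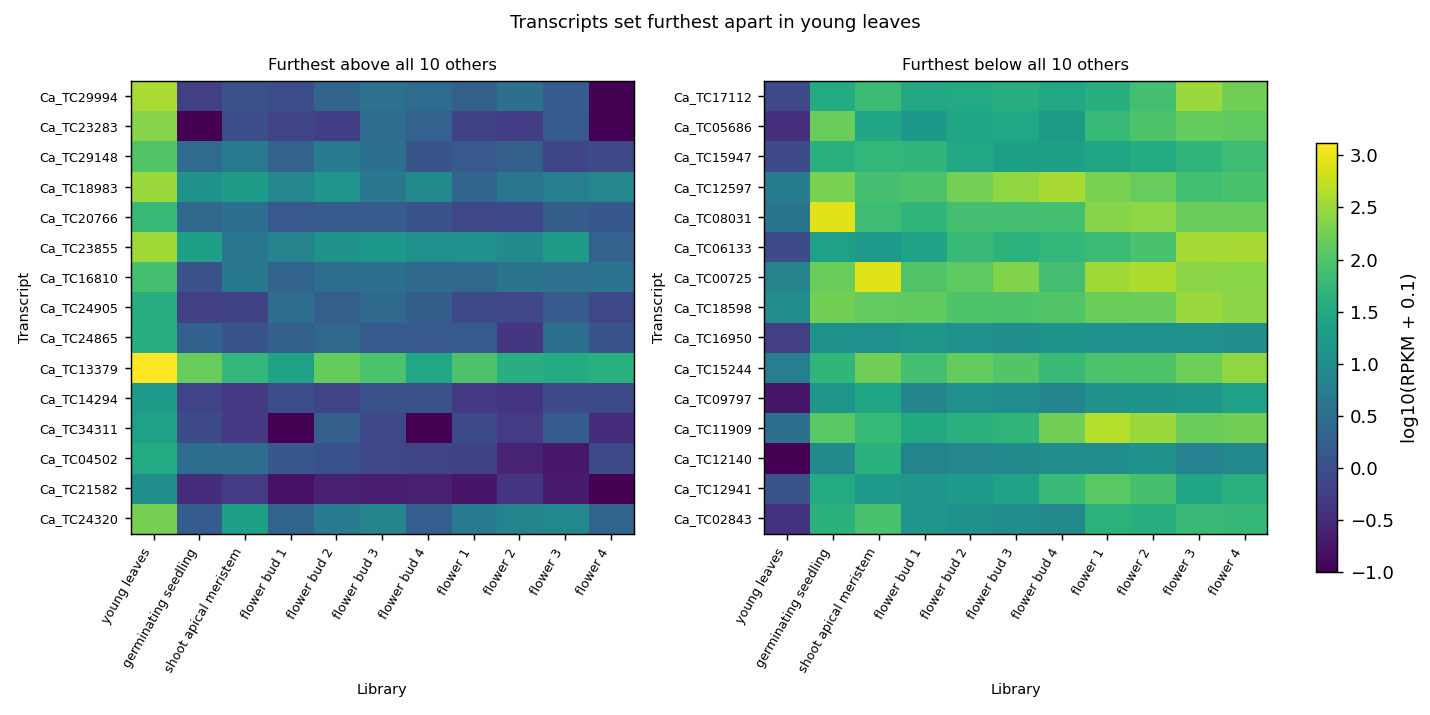
The 15 transcripts with the largest excess of young leaves over the highest of the other 10 libraries (left) and the 15 with the largest deficit below the lowest (right), in rows, over the 11 libraries in columns, coloured by log10(RPKM + 0.1). The leaf column is the brightest of every row on the left and the darkest of every row on the right.

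The transcripts below all others in young leaves were mostly moderate in level elsewhere. The 1188 had a median of 1.75 RPKM in young leaves, against a median of 6.38 for the lowest and 30.3 for the highest of the other 10. They held 0.602% of the leaf RPKM, against 3.77% (flower bud 1) to 7.70% (flower 4) elsewhere, a direction fixed by the rule that chose them. In young leaves 420 of them were under 1 RPKM and 140 at or over 10. For 1048 the leaf value lay below the other 10 beyond the 95% Poisson intervals, against 4099 of all 33581 tested, a result that the choice by a wide gap favoured. Their highest library was the shoot apical meristem for 221 (18.6%, against 24.9% of all tested) and flower 3 for 162 (13.6%, against 8.40%). It was flower 4 for 145 (12.2%, against 7.13%), flower 2 for 127 (10.7%, against 5.53%) and flower bud 2 for 44 (3.70%, against 8.36%).

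Ca_TC17112 showed the largest deficit on the log2(RPKM + 1) scale, with 0.713 RPKM in young leaves, against values from 29.3 (flower bud 4) through a median of 38.8 to 312 RPKM (flower 3) in the other 10. The lowest other library was 41.1-fold (95% interval 25.2 to 72.4) above the leaf, a log2 difference of -4.15, and the difference from the lowest other library after median-of-ratios scaling was -3.83. Ca_TC05686 had 0.270 RPKM in young leaves, against values from 15.6 (flower bud 1) through a median of 45.5 to 152 RPKM (the germinating seedling), and Ca_TC06133 had 0.764 in young leaves, against values from 16 (the shoot apical meristem) through a median of 56.5 to 383 RPKM (flower 4). All 3 were highest in the seedling or the last flower stages, and by the rule of choice none came near the leaf value in any other library. Ca_TC15947, with 3480 bases the longest of the 15, had 0.783 RPKM in young leaves, against values from 20.9 (flower bud 3) through a median of 37.0 to 69.9 RPKM (flower 4), where the lowest other library was 26.7-fold (95% interval 21.2 to 34.1) above the leaf. Ca_TC16950 was the most even of the 15 outside the leaf, with 0.499 RPKM in young leaves, against values from 11.1 (flower bud 3) through a median of 11.8 to 15 RPKM (flower bud 1).

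Several transcripts of the group were still read clearly in the leaf. Ca_TC18598 had 10.7 RPKM in young leaves (220 reads), against values from 94.8 (flower bud 3) through a median of 147 to 320.5 RPKM (flower 3) elsewhere. Ca_TC00725 had 6.98 RPKM in young leaves, against values from 75.9 (flower bud 4) through a median of 231 to 814 RPKM (the shoot apical meristem), and Ca_TC08031 had 3.93 in young leaves, against values from 50.4 (flower bud 1) through a median of 115 to 848 RPKM (the germinating seedling). The meristem was the highest library for Ca_TC00725 and the seedling for Ca_TC08031. Ca_TC12597 had 5.37 RPKM in young leaves, against values from 73.4 (flower 3) through a median of 164 to 385 RPKM (flower bud 4). Ca_TC09797 rested on 2 leaf reads, 0.0748 RPKM, against values from 7.44 (flower bud 1) through a median of 13.0 to 26.2 RPKM (the shoot apical meristem), a ratio of the lowest other library to the leaf of 99.5-fold (95% interval 27.2 to 826). Over the 14 with any leaf reads, the lowest other library was 8.86 to 99.5 times the leaf value, with a median of 17.3. All 15 stayed at least 1 below all others after each of the 3 other scalings. Their smallest log2 difference as deposited was -2.90, so this too was largely set by the choice.

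Complete absence from young leaves was rarer. The leaf value was 0 for 1772 transcripts, against 863 to 1646 in the other libraries. A value of 0 in young leaves with an RPKM of at least 1 in all 10 others was found for 45 of the 33581 transcripts (0.134%), against 24 for flower 3, 11 for the germinating seedling and 0 to 4 for each other library. With at least 5 RPKM in all 10 others only 2 transcripts were left, Ca_TC12140 and Ca_TC26701. The 45 were short, with a median length of 184 bases, and for 24 the leaf lay below the other 10 beyond the Poisson intervals. Ca_TC12140 (706 bases) had no leaf read, against values from 6.54 (flower 3) through a median of 8.89 to 42.6 RPKM (the shoot apical meristem), so that even the lowest was at least 41.8-fold higher than a floor of 3 leaf reads. Ca_TC04687 (868 bases) likewise had none in the leaf, against values from 2.55 (the germinating seedling) through a median of 6.57 to 23.5 RPKM (flower 3), at least 20.1-fold higher. For Ca_TC26701, Ca_TC33213, Ca_TC30247, Ca_TC25563, Ca_TC27930 and Ca_TC27831, of 150 to 215 bases, this bound lay between 4.6 and 9.78. Short length left the floor high for these 6.

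Values under 1 in 1 library alone include the values of 0, and on the deposited values flower 3 came next to the leaf. An RPKM under 1 in young leaves and of at least 1 in all 10 others was found for 1171 of the 33581 transcripts, against 748 for flower 3, 237 for the germinating seedling and 76 to 175 for each of the rest. Median-of-ratios factors were lowest for young leaves (0.760) and flower 3 (0.895), and whether this order holds after scaling was not tested. In the opposite direction, 110 transcripts reached an RPKM of 1 in young leaves alone, against 449 in the germinating seedling alone, 175 in flower bud 1 alone and 106 in the shoot apical meristem alone. Reads in young leaves and in no other library were found for 5 transcripts, with at most 3 reads and 0.732 RPKM, which is at the floor.

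Compared with 1 library at a time, young leaves had more transcripts lower than higher by at least 1 in all 10 comparisons on the deposited values. These comparisons share the leaf library and are not independent. Against the germinating seedling young leaves were higher for 3502 (10.4%) and lower for 7691 (22.9%) transcripts. Against the shoot apical meristem they were higher for 2780 (8.28%) and lower for 9962 (29.7%), the most uneven of the 10. Against flower buds 1 to 4 the transcripts higher in young leaves were 9.1, 8.68, 9.87 and 11.4% of those tested, and the lower ones 26.5, 24.4, 25.0 and 24.7%. Against flowers 1 to 4 they were 12.7, 12.0, 15.1 and 11.8% higher and 24.7, 26.4, 23.4 and 24.4% lower. Flower 3 was the most even, with 5085 higher and 7854 lower in young leaves. The median log2 difference of young leaves from the other library was between -0.46 and -0.13 in these 10 comparisons, and was below 0 in each.

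Median-of-ratios scaling removed this shift, with medians between -0.01 and 0.01, and the counts became close to even. Young leaves were then higher for 5151 (15.3%) and lower for 6020 (17.9%) against the germinating seedling, and 5637 (16.8%) and 5564 (16.6%) against the shoot apical meristem. Against flower buds 1 to 4, 16.5, 15.7, 16.5 and 17.6% were higher and 13.9, 14.4, 16.4 and 17.1% lower in young leaves. Against flowers 1 to 4, 18.4, 18.5, 20.0 and 17.6% were higher and 19.2, 19.3, 20.2 and 19.3% lower. More were higher than lower in 5 of the 10 comparisons after this scaling, in 10 after quantile normalization and in 0 after scaling to a common sum. Which direction prevailed between young leaves and another tissue therefore followed the scaling. Across transcripts, the Spearman correlation of young leaves was 0.721 with the germinating seedling and 0.765 with the shoot apical meristem. With flower buds 1 to 4 it was 0.757, 0.768, 0.744 and 0.724. With flowers 1 to 4 it was 0.704, 0.703, 0.693 and 0.704, all lower than with any other library. These are correlations across transcripts within pairs of libraries, and transcripts are not independent replicates.

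The largest single leaf excesses over the germinating seedling and over the shoot apical meristem were both led by Ca_TC29994 and Ca_TC23283. Against the germinating seedling, Ca_TC29994 had 393 RPKM in young leaves and 0.504 in the seedling (2 reads), a ratio of 781-fold (95% interval 216 to 6458), and Ca_TC24320 had 186 in young leaves and 1.49 in the seedling, 124-fold (95% interval 71.0 to 241). Ca_TC12032 had 0.0305 RPKM in young leaves, from 2 reads, against 1548 in the seedling, a log2 difference of -10.55, and the seedling was 50800.3-fold (95% interval 14063 to 419481) the leaf. It was at most 1.09 RPKM in each of the other 9 libraries. Ca_TC23842 had 0.0711 RPKM in young leaves (1 read), against 1566 in the seedling and at most 1.59 in the others. Ca_TC06623 had 0.0320 in young leaves (1 read), against 1076 in the seedling and at most 0.0595 in the others. For all 3 the seedling stood apart from the leaf and the other 9 libraries alike.

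Against the shoot apical meristem, the next largest leaf excess was that of Ca_TC22556, which had 913 RPKM in young leaves and 7.53 in the meristem, 121-fold (95% interval 86.2 to 176), with flower 1 at 385 in between. At the leaf-low end, Ca_TC18471 had 1.06 RPKM in young leaves, against 3274 in the meristem, 142 in the seedling and 2.76 to 45.3 in buds and flowers. Ca_TC04202 had 0.0524 RPKM in young leaves (1 read), against 1066 in the meristem and 300.3 in the seedling. Ca_TC22962 had 1.01 RPKM in young leaves, against 907 in the meristem and 313 in the seedling. The meristem and the seedling were both high for these 3, and the leaf was the lowest library for each.

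Some transcripts were high in young leaves and in exactly 1 other library. Young leaves and the shoot apical meristem were both at least 1 above the remaining 9 for 54 transcripts, young leaves and the germinating seedling for 41, flower 3 for 17, flower bud 1 for 14, flower bud 2 for 9 and flower 4 for 3. No transcript was shared in this way with flower bud 3, flower bud 4, flower 1 or flower 2. After median-of-ratios scaling the shared counts were 63 with the meristem, 72 with the seedling and 29 with flower 3. With flower bud 1, flower bud 2 and flower 4 they were 11, 9 and 6. The order of meristem and seedling thus turned with the scaling. As deposited, shared lows were more common than shared highs for the meristem (173) and the seedling (111). After scaling the lows were 139 and 64, fewer than the highs for the seedling. Flower buds 1, 3 and 4 and flower 4 also had more shared lows as deposited (28, 5, 1 and 11), while flower bud 2 and flower 3 had fewer (6 and 14).

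With the meristem, Ca_TC25889 had 139 RPKM in young leaves and 116 in the meristem, against at most 9.10 in the remaining 9. Ca_TC16785 had 26.8 in young leaves and 43.8 in the meristem, against at most 1.43, and Ca_TC05003 had 35.4 in young leaves and 64.8 in the meristem, against at most 3.77. With the seedling, Ca_TC01391 had 252 RPKM in young leaves and 494 in the seedling, against at most 26.1 elsewhere. The shared level was not always alike in the sharing libraries, as Ca_TC16785, Ca_TC05003 and Ca_TC01391 were lower in young leaves than in the library that shared them. Ca_TC20878 had 119 RPKM in young leaves and 105 in flower bud 2, against at most 6.54 elsewhere, with flower buds 1 and 3, next to it in stage, at 1.16 and 4.62. Ca_TC20883 had 43.1 in young leaves and 41.4 in flower bud 2, against at most 11.3 elsewhere. With flower 3, Ca_TC05927 had 93.2 RPKM in young leaves and 23.7 in flower 3, against at most 4.38. With flower 4, Ca_TC06559 had 1003 in young leaves and 552 in flower 4, against at most 269. With flower bud 1, Ca_TC21271 had 30.5 in young leaves and 29.3 in flower bud 1, against at most 8.22.

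The direction in which the leaf departed from the other libraries changed with the level of the transcript. For transcripts whose log2(RPKM + 1) averaged under 1 over the other 10 libraries, the median leaf difference from that mean was -0.08 (3282 transcripts). For those averaging 1 to 2 it was -0.19 (7525 transcripts). For those averaging 2 to 4, young leaves were 0.52 below the mean at the median (14041 transcripts). For those averaging 4 to 6 the median was -0.51, and for 6 to 8 it was -0.45. It was 0.20 for the 308 transcripts averaging 8 to 10, and 1.17 for the 33 averaging 10 or more, of which 23 were above the mean in young leaves. After median-of-ratios scaling the medians from 2 upwards were -0.16, -0.09, -0.02, 0.64 and 1.62, so the leaf excess at the top was found on both scales and the deficit in the middle was smaller. Under 1 and from 1 to 2 the scaled medians were 0.07 and 0.09, so the sign at these low levels turned with the scaling. Among the 10 transcripts highest on average over the 11 libraries, 7 were highest in young leaves. The exceptions were Ca_TC25222, Ca_TC24113 and Ca_TC16801. Ca_TC16801 had 52.3 RPKM in young leaves, 43.8 in the germinating seedling and 52.7 in the meristem, against 4699 to 11000.3 in flowers 1 to 4.

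**Figure D5:**
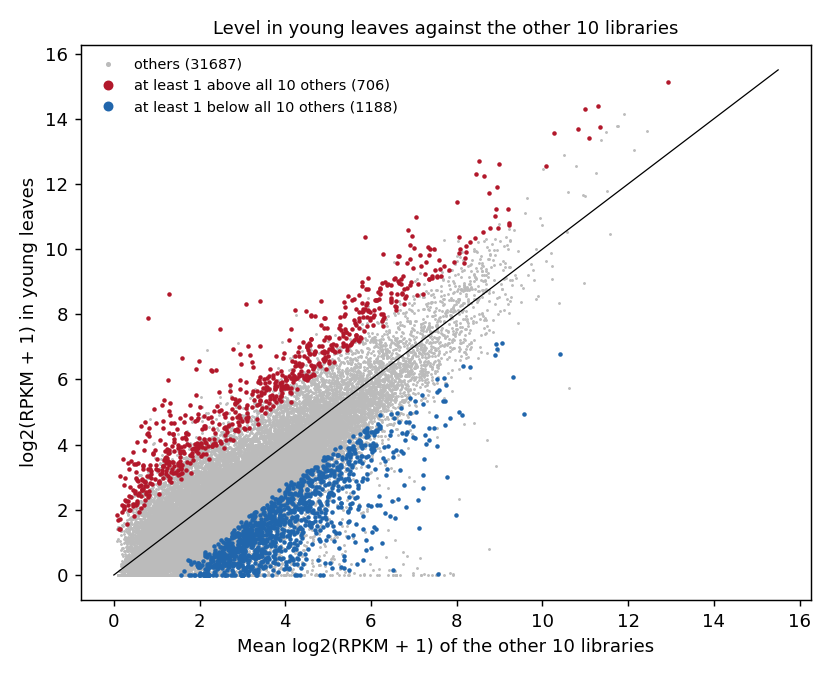
Log2(RPKM + 1) in young leaves (y axis) against the mean of the other 10 libraries (x axis) for 33581 transcripts, with the line of equal level. The 706 transcripts at least 1 above all 10 others are red and the 1188 at least 1 below are blue, and points at the right end lie mostly above the line.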

How the data were processed

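RNA sequencing values of 11 chickpea libraries were used, 1 per tissue or stage, grouped by their tissue labels. Read filtering was done with NGS QC Toolkit, per the series text, before mapping to a set of 34760 chickpea transcripts, and the authors deposited RPKM for each library. No DESeq output of the authors was used. Which aligner was run, and how it placed reads that match near-identical transcripts, is not given in the sources used here, and values of such transcripts are uncertain. 128 blank rows per file were left out.

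Ratios of low values gave each library's depth, and with it whole reads and lengths of at least 100 bases for 34703 transcripts, within 4e-09 of the reads plus 3e-06 reads. Between 99.952% and 99.998% of each total was recovered. A factor common to all totals was chosen so that this share came close to the whole, so the share is no separate check. The recovery and the calls were tested on simulated data.

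Differences were taken on log2(RPKM + 1), which understates changes of low transcripts. Transcripts reaching RPKM 1 in any library were compared, and a difference of at least 1 was called. With 1 library per tissue no p-value was computed. Poisson intervals and ratio intervals conditional on the summed reads were exact. Alternatives were median-of-ratios scaling, quantile normalization, a common sum, pseudocounts of 0.1 and 5, other filters and differences, leaving out each other library, and thinning (seeded) to the shallowest depth. Python 3.11.15, numpy 2.4.6, pandas 2.3.3, scipy 1.17.1 and matplotlib 3.10.9 were used.

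Transcripts were named by rule: the 20 highest in young leaves, the 15 largest excesses and 15 largest deficits against all other libraries that kept their sign after median-of-ratios scaling, 8 at 0 in young leaves with the highest minimum elsewhere, up to 3 per comparison with 1 library or shared with 1 library, and the 10 highest on average. The young leaf library, the rules and the limits were chosen with earlier results of these data known.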

Additional observations from a re-analysis of the deposited data

How the results depend on the processing

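The counts for young leaves moved with the scaling and with the size of difference asked for. Transcripts above all others numbered 706 as deposited, 1455 after median-of-ratios scaling, 1350 after quantile normalization, 425 with a common sum, 457 with a pseudocount of 5, 85 at a difference of at least 2 and 3579 at any difference. Those below all others numbered 1188 as deposited, 571 after median-of-ratios scaling, 489 after quantile normalization, 2564 with a pseudocount of 0.1, 257 with a pseudocount of 5, 103 at a difference of at least 2 and 9568 at any difference. In comparisons with 1 library, the median number higher in young leaves was 3670.5 as deposited, 5765.5 after median-of-ratios scaling, 6006 after quantile normalization and 1772.5 with a pseudocount of 5. The median number lower was 8291.5 as deposited, 5404.5 after quantile normalization and 4124 with a pseudocount of 5. The 100 highest transcripts held 40.2% of RPKM, 21.4% in reads and 38.0% without the highest. For the 10 highest these were 18.3%, 5.13% and 16.5%, and for the 1000 highest 66.6%, 52.3% and 65.3%. Detected transcripts numbered 27059 at an RPKM of at least 1, 28297 at that limit after median-of-ratios scaling and 14968 at 5. Those absent from young leaves numbered 45, or 2 with at least 5 RPKM in all others. Leaving out each other library in turn gave 708 to 894 transcripts above, 1194 to 1548 below and 45 to 66 absent. No paired analysis was possible because each tissue had 1 library.

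Of 57 named transcripts under 4 alternatives, 214 of 228 log2 differences from the nearest library kept their sign. Pseudocounts of 0.1 and 5 were among the 4 and cannot turn a sign. Only median-of-ratios scaling and quantile normalization could therefore change this count. Quantile normalization turned 5 called ones round, with Ca_TC13484 at -0.75, Ca_TC13991 at -0.44, Ca_TC13008 at -0.50, Ca_TC13413 at -0.95 and Ca_TC06492 at -0.057. It gives the transcript of a given rank the same value in every library, which takes away an excess in level at the top of the leaf library. Depth limits short transcripts and values of few reads most.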

Other observations

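Recovered length was set beside the counts of transcripts set apart in young leaves. Among transcripts of 100 to under 300 bases, 1.63% were at least 1 above all others in young leaves and 2.72% at least 1 below. From 1000 to under 2000 bases the shares were 2.67% and 4.61%, and from 2000 bases on they were 2.19% and 2.32%. The median length was 976 bases for the 706 transcripts above and 876 for the 1188 below, against 752 for all transcripts tested. After median-of-ratios scaling it was 974 for the 1455 above and 715 for the 571 below. The relation of length to these counts was not tested.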
